A study of Mus musculus with 41 samples.

Results

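Mouse microglia kept for 6 h in culture were compared with microglia taken straight from the brain, using the poly(A) RNA libraries of 2 cultures and 5 ex vivo samples, 7 of the 41 samples of the series, and all 13840 genes with enough counts to be tested. The cultured cells came from C57Bl6 mice, were sorted, and were then plated in DMEM/F12 medium with 5% fetal bovine serum and daily interleukin-34 (IL-34) for 6 h. The ex vivo cells were likewise sorted from C57Bl6 mice and lysed without culture, and both groups used 100000 to 150000 cells per library. A further pair of time points serves as context, 24 h with 3 libraries (1 of them labelled 22 h) and 7 d with 5 libraries, all in the same medium. The labels used here state neither age nor sex of the mice. They also leave unsaid whether each library had its own animals, and the p-values therefore speak only of the spread between libraries, which may be technical.

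Microglia are the macrophages of brain tissue. In the brain they keep a surveillant state that depends on signals such as transforming growth factor β (TGFβ), and they survive on IL-34 and CSF1, both ligands of the CSF1 receptor. Cultured cells lose the brain's signals, attach to a plastic surface and meet serum, which the brain normally excludes. The ex vivo cells had themselves gone through dissociation and sorting, so the comparison sets 6 h of culture beside freshly sorted cells and not beside undisturbed tissue. Culture medium, serum, IL-34, attachment and time were changed together and their effects cannot be told apart.

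Levels are given in CPM, read counts per 1000000 of the TMM-scaled library size, and changes as log2 fold changes of 6 h over ex vivo with their standard error from edgeR's quasi-likelihood fit. A gene was called where its Benjamini-Hochberg adjusted p was under 0.05. Libraries held 25643201 and 21392355 counts at 6 h, against 13338672 to 21902309 ex vivo. On log2 CPM the 6 h libraries correlated at 0.995 with each other, the ex vivo libraries at 0.967 to 0.989 among themselves, and libraries of different groups at 0.807 to 0.828. Several libraries stood apart for particular genes: 6 h replicate 1 for interferon-response genes, ex vivo replicates 2 and 3 for immediate-early genes, and ex vivo replicates 2, 3 and 4 for markers of other cell types.

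At 6 h, 4312 genes were higher, 31.2% of those tested, and 5099 were lower, 36.8%. The counts of gene lists below are to be read beside these shares. At least 4-fold changes were found in 1281 called genes that were higher (9.26%) and in 2619 that were lower (18.9%), and 116 genes rose and 204 fell by 100-fold or more. Of the 9411 genes called either way, 9027 had no overlap between the 6 h and the ex vivo libraries. The called genes split 45.8% to the higher side, 32.7% with plain library totals in place of TMM scaling (3068 higher, 6322 lower) and 34.8% with the deposited TPM (3205 higher, 5999 lower). The median log2 fold change over all genes was -0.17 with TMM and -0.57 with library totals, and changes below that size depend on the scaling. Many of these changes involved low levels in the lower group. Of the genes at least 4-fold higher, 506 averaged under 1 CPM ex vivo, and of those at least 4-fold lower, 1444 averaged under 1 CPM at 6 h. Absence was not tested, and these counts set no level for the higher group. In bulk RNA, fewer cells that express a gene and less RNA per cell cannot be told apart.

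**Figure D1:**
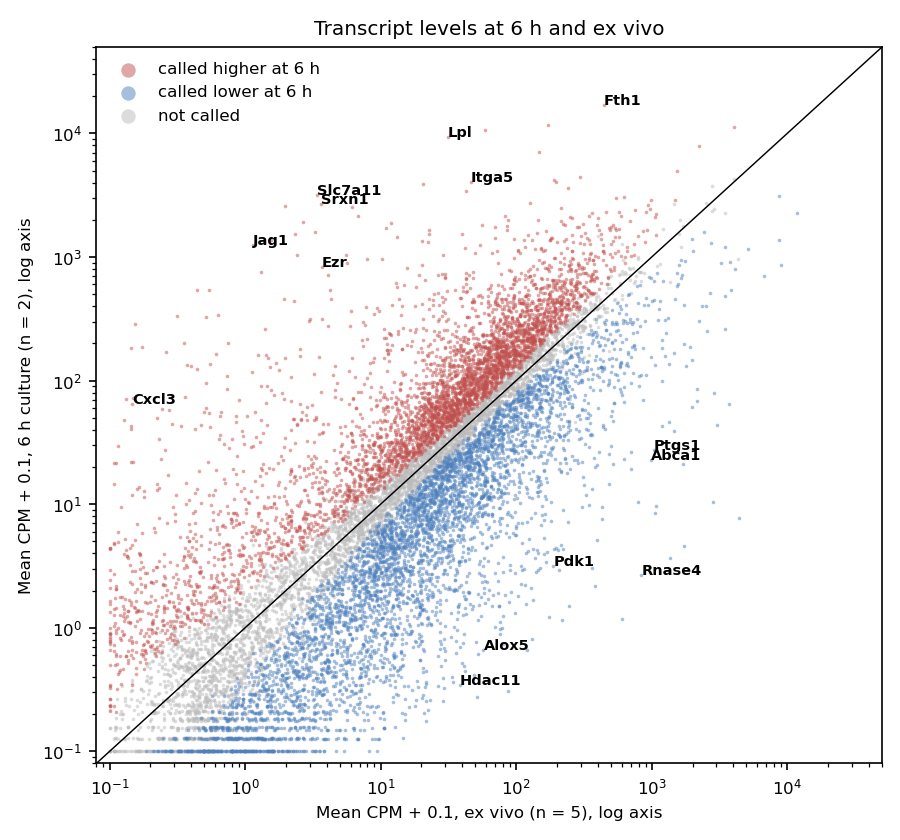
Mean level of each of the 13840 genes tested at 6 h (vertical axis) against ex vivo (horizontal axis), both in CPM + 0.1 on log axes. Red points were called higher at 6 h (4312 genes), blue points lower (5099) and grey points neither, and the line marks equal levels.

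The rule used for the largest rises took named genes averaging at least 20 CPM at 6 h with no overlap between groups. They included several regulators and secreted factors that were near absent ex vivo. Jag1, a ligand of Notch receptors, had 1308 and 1213 CPM at 6 h, against 1.86, 1.44, 0.645, 0.573 and 0.667 CPM ex vivo (log2 10.23 ± 0.58). Emp1, a small membrane protein, had 323 and 343 CPM at 6 h, against 0.0464, 0.375, 0.605, 0 and 0.0556 CPM ex vivo (10.41 ± 0.48). Ankrd33b, an ankyrin-repeat protein, had 575 and 498 CPM at 6 h, against ex vivo levels of 0.847 CPM or less (10.17 ± 0.35). Each of these genes was high in both 6 h libraries and low in every ex vivo library. Spic, a transcription factor related to PU.1, had 22 and 37.3 CPM at 6 h, against 2 counts over the ex vivo libraries, both in replicate 3. Counting error alone puts the Spic ratio at 387 to 11500 (95% Poisson interval; such intervals leave out PCR duplication, which these libraries had no molecular identifiers to remove). Hspb7, a small heat-shock protein, had 20.2 and 22.9 CPM at 6 h, against 1 count ex vivo, a ratio of 365 to 80300.

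The host transcript of microRNA-155, Mir155hg, had 55.3 and 41.2 CPM at 6 h, against 0, 0.0625, 0, 0.0717 and 0 CPM ex vivo. It was present in both 6 h libraries and all but absent ex vivo, with 2 counts over the 5 libraries and a ratio of 629 to 18800 (95% Poisson interval). miR-155 is a microRNA of activated macrophages and lymphocytes that is cut from this transcript. The RNA libraries measured the host transcript and not the mature microRNA. The mature sequences are shown because the host transcript was among the largest rises, with the seed (bases 2 to 8) in capitals. RefSeq places miR-155-5p at chr16:84714143-84714165 and miR-155-3p at chr16:84714182-84714202, both on the + strand.
miR-155-5p: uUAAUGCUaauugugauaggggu
miR-155-3p: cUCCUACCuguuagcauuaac

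The largest falls beyond the receptors described further on were spread over enzymes, signalling proteins and secreted proteins. Bank1, a signalling scaffold known from B cells, had 0.298 and 0.0575 CPM at 6 h, against 64, 56, 56.8, 44.9 and 36.1 CPM ex vivo (log2 -8.08 ± 1.19). Dyrk4, a protein kinase, had 0.149 and 0 CPM at 6 h, 3 counts in all, against 23.3, 21.8, 20.8, 23.5 and 18.5 CPM ex vivo, and counting error alone puts it 92.2- to 1310-fold lower. Gal3st4, a sulfotransferase that acts on galactose, had 3.08 and 1.09 CPM at 6 h, against 356, 380, 417, 371 and 377 CPM ex vivo (-7.48 ± 0.43). All of these were low in both 6 h libraries and at steady levels in the 5 ex vivo libraries. Their lack of overlap was a condition of the rule that picked the largest falls. Hacd4 (0.149 and 0.0575 CPM against 16.7 to 25.1 CPM) and Upk1b, a uroplakin (0.846 and 0.575 CPM against 89.7 to 192 CPM), fell by 7.53 and by 7.51 on the log2 scale. Rnase4 and Ang, secreted ribonucleases, fell to 3.48 and 1.67 CPM and to 0.846 and 0.287 CPM at 6 h, against 602 to 1064 CPM and 92.1 to 143 CPM ex vivo. These 2 genes overlap in the genome and their counts may share reads.

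The antioxidant genes of the list used here all rose. Like the other lists, it was chosen with earlier results of these data known. This defence is organised around the factor NRF2 (gene Nfe2l2), which binds antioxidant response elements and drives genes for thioredoxin, peroxiredoxins, glutathione supply and quinone detoxification. All 19 genes of the list were called higher at 6 h, 16 of them at least 4-fold, with no overlap between groups for any. Their median log2 fold change was 5.00, beside -0.17 over all genes, and they ranged from 1.23 for Nfe2l2 to 9.55 for Srxn1. All 19 were also called higher with library totals and with the deposited TPM. Srxn1, sulfiredoxin, which repairs oxidised peroxiredoxins, had 2779 and 2568 CPM at 6 h, against 4.32, 3.44, 3.75, 3.37 and 2.89 CPM ex vivo (9.55 ± 0.28, edgeR adjusted p = 1.32e-13). Prdx1, a peroxiredoxin that sulfiredoxin repairs, had 1447 and 1635 CPM at 6 h, against 22.7, 23.4, 31.9, 20.4 and 15.5 CPM ex vivo (6.08 ± 0.20). Txnrd1, thioredoxin reductase, had 3528 and 3337 CPM at 6 h, against 47.1, 37.6, 40, 44.3 and 44.2 CPM ex vivo (6.33 ± 0.21). Within each group the libraries lay close together and the groups were far apart. Sqstm1, the autophagy receptor p62, which also binds the NRF2 inhibitor KEAP1, stood at 7022 and 7133 CPM at 6 h, against 118 to 186 CPM ex vivo (5.58 ± 0.22). Compared with 24 h, 9 of the 19 were higher at 6 h. Without 6 h replicate 2, 17 of the 19 were called higher than ex vivo.

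The promoter of Srxn1 is shown because this gene had the largest change of the antioxidant list. Capitals mark the AP-1 letters TGANTCA, searched on both strands, which also form the core of many antioxidant response elements. They begin 102 and 45 bases before the start of the gene. The sequence is the 250 bases before the start in RefSeq on GRCm38 (mm10), chr2:152105274-152105523 on the + strand. Of 32851 promoters of 300 bases in the same table (250 before to 50 after a start), 7.81% hold these letters. The match is a description and not evidence that a factor binds there.
Srxn1 promoter: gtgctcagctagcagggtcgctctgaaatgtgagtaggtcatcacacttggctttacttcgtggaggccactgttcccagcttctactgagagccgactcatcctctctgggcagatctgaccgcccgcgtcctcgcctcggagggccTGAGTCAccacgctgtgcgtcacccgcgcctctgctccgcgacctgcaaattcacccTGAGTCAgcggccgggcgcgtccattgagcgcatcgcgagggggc

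Of 11 iron genes tested, 7 were called higher and 3 lower, with a median log2 fold change of 1.38. The lower ones were Steap3, Lcn2 and Cp, ceruloplasmin, an iron oxidase with 5.47 and 5.75 CPM at 6 h, against 17.8 to 26.8 CPM ex vivo (-1.99 ± 0.21). The ferritin chains, which store iron, reached 17520 and 16620 CPM for Fth1 at 6 h, against 315 to 557 CPM ex vivo (5.27 ± 0.31), and 3926 and 4453 CPM for Ftl1, against 115 to 238 CPM (4.46 ± 0.28). Both groups were clear of each other, though ferritin counts are uncertain because pseudogenes share their reads. Slc11a2, the endosomal iron transporter DMT1, had 440 and 368 CPM at 6 h, against 33.6 to 48.5 CPM ex vivo (3.33 ± 0.29).

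Protein turnover and the response to amino acid shortage also moved as groups. The proteasome degrades ubiquitin-tagged proteins, and 33 of its 38 genes tested were called higher at 6 h (10 at least 4-fold, median log2 1.58), while 3 were lower. Psmd1, a subunit of the regulatory particle, had 493 and 422 CPM at 6 h, against 73.7, 72.4, 73.5, 70.1 and 67 CPM ex vivo (2.68 ± 0.10). Psmd11 had 259 and 234 CPM at 6 h, against 24.1 to 30.1 CPM ex vivo (3.21 ± 0.14), the largest rise of the list. The constitutive particle thus rose, while subunits of the immunoproteasome, the form that interferon induces for antigen processing, did not. Psmb9 had 3.13 and 1.44 CPM at 6 h, against 22.6, 14.4, 26.1, 14.1 and 17.7 CPM ex vivo (-3.04 ± 0.66). Psmb10 had 11.5 and 12.1 CPM at 6 h, against 23.9 to 53.1 CPM ex vivo (-1.69 ± 0.32). Psmb8, the third inducible subunit, had 42.4 and 36.8 CPM at 6 h and overlapped the ex vivo range of 30.6 to 60.6 CPM (-0.09 ± 0.31, not called). With library totals the counts of the list were 32 higher and 3 lower.

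The integrated stress response, in which the factor ATF4 drives amino acid transport, amino acid synthesis and transfer RNA charging, had 17 of 21 genes higher and 1 lower (median log2 2.03), and 15 higher and 1 lower with library totals. Slc7a11, the cystine importer that feeds glutathione synthesis, had 3397 and 2894 CPM at 6 h, against 4.27, 3.56, 3.11, 2.72 and 2.78 CPM ex vivo (9.89 ± 0.94, edgeR adjusted p = 2.14e-07). Its partner chain Slc3a2, which it needs at the cell surface, had 1831 and 1696 CPM at 6 h, against 245 to 302 CPM ex vivo (2.65 ± 0.14). Both were high in the 6 h libraries with no overlap, and differed in that Slc3a2 was already abundant ex vivo. Charging enzymes for alanine (Aars, 492 and 483 CPM against 82.6 to 129 CPM), glycine (Gars, 146 and 125 CPM against 40.7 to 49.6 CPM) and serine (Sars, 203 and 196 CPM against 41.2 to 60.9 CPM) rose by log2 changes of 2.07, 1.61 and 1.95. Sesn2, a sensor that restrains mTORC1, had 110 and 115 CPM at 6 h, against 11.5 to 19 CPM ex vivo (2.91 ± 0.19). Wars, the charging enzyme for tryptophan, had 72.5 and 69.8 CPM at 6 h, against 40 to 62.5 CPM ex vivo, and was not called (0.38 ± 0.16, edgeR adjusted p = 0.0507). It was called in 5 of the 15 alternatives, such as without ex vivo replicate 4 (0.45, edgeR adjusted p = 0.0274). Ddit4, a target of hypoxia and glucocorticoids that restrains mTORC1, was the lower member, with 4.28 and 2.93 CPM at 6 h, against 26, 51.5, 29.1, 9.1 and 174 CPM ex vivo (-4.00 ± 0.93). Its ex vivo libraries were uneven, with replicate 5 far above the others, and it was not called when the fit held only these 7 libraries (-3.96, edgeR adjusted p = 0.0504).

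The Slc7a11 promoter is shown as the promoter of the largest rise in the amino acid response. Capitals mark the letters TGATGNAA that ATF4 and C/EBP partners are known to bind, found 66 and 47 bases before the start on opposite strands. They occur in 3.97% of the 32851 promoters. The sequence is chr3:50443614-50443863 of mm10, read on the - strand, from RefSeq.
Slc7a11 promoter: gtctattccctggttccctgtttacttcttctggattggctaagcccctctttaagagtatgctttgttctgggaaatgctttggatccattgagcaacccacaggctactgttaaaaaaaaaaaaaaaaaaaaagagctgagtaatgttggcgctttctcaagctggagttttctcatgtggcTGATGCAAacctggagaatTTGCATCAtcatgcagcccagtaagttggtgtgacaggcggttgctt

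The unfolded protein response of the endoplasmic reticulum leaned the other way, with 10 of 20 genes called lower at 6 h and 2 higher. The remaining 8 were not called, and over all genes 36.8% were lower and 31.2% higher. The counts were 17 and 2 under library totals and 15 and 2 with the deposited TPM. The lower count was smaller when either 6 h replicate was left out. Sdf2l1, a chaperone cofactor, had 4.08 and 5.98 CPM at 6 h, against 50.2, 27.5, 67, 27 and 33.3 CPM ex vivo (-3.04 ± 0.59), and Pdia4, a protein disulfide isomerase, had 33 and 37.5 CPM, against 120 to 170 CPM (-2.04 ± 0.21). The higher members were Atf6, a stress-sensing factor of the reticulum (346 and 351 CPM at 6 h, against 127 to 179 CPM ex vivo, 1.22 ± 0.13), and Edem1, which sends misfolded glycoproteins to degradation (2075 and 1841 CPM, against 579 to 822 CPM, 1.51 ± 0.15). Hspa5, the main chaperone of the reticulum, had 654 and 600 CPM at 6 h and lay within the ex vivo spread of 581 to 3299 CPM (-1.12 ± 0.53, not called). It was called lower without ex vivo replicate 2 (-1.31, edgeR adjusted p = 0.0292), replicate 3 (-1.30, edgeR adjusted p = 0.0333) or both (-1.58, edgeR adjusted p = 0.00387), and with library totals or the deposited TPM. Among cytosolic chaperones 10 of 20 were higher and 1 lower. These included subunits of the TRiC folding ring: Cct3 had 254 and 219 CPM at 6 h, against 52.6 to 77.9 CPM ex vivo (1.81 ± 0.14), and Cct2 and Tcp1 rose by 1.42 ± 0.14 and 1.57 ± 0.18. Of 28 ribosome biogenesis genes, 22 were higher (median log2 1.27), and 21 with library totals. Gnl3 (nucleostemin) had 124 and 112 CPM at 6 h, against 21.1 to 28.5 CPM ex vivo (2.22 ± 0.14), and Ddx21, an RNA helicase of the nucleolus, had 359 and 308 CPM, against 80.2 to 97.5 CPM (1.95 ± 0.13). Respiratory chain genes had no stable direction, with 19 higher and 9 lower of 77 tested, but 8 and 17 with library totals. Of 76 cytosolic ribosomal protein genes, whose pseudogenes share reads and leave their counts uncertain, 21 were higher and 6 lower, and 12 and 7 with library totals.

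**Figure D2:**
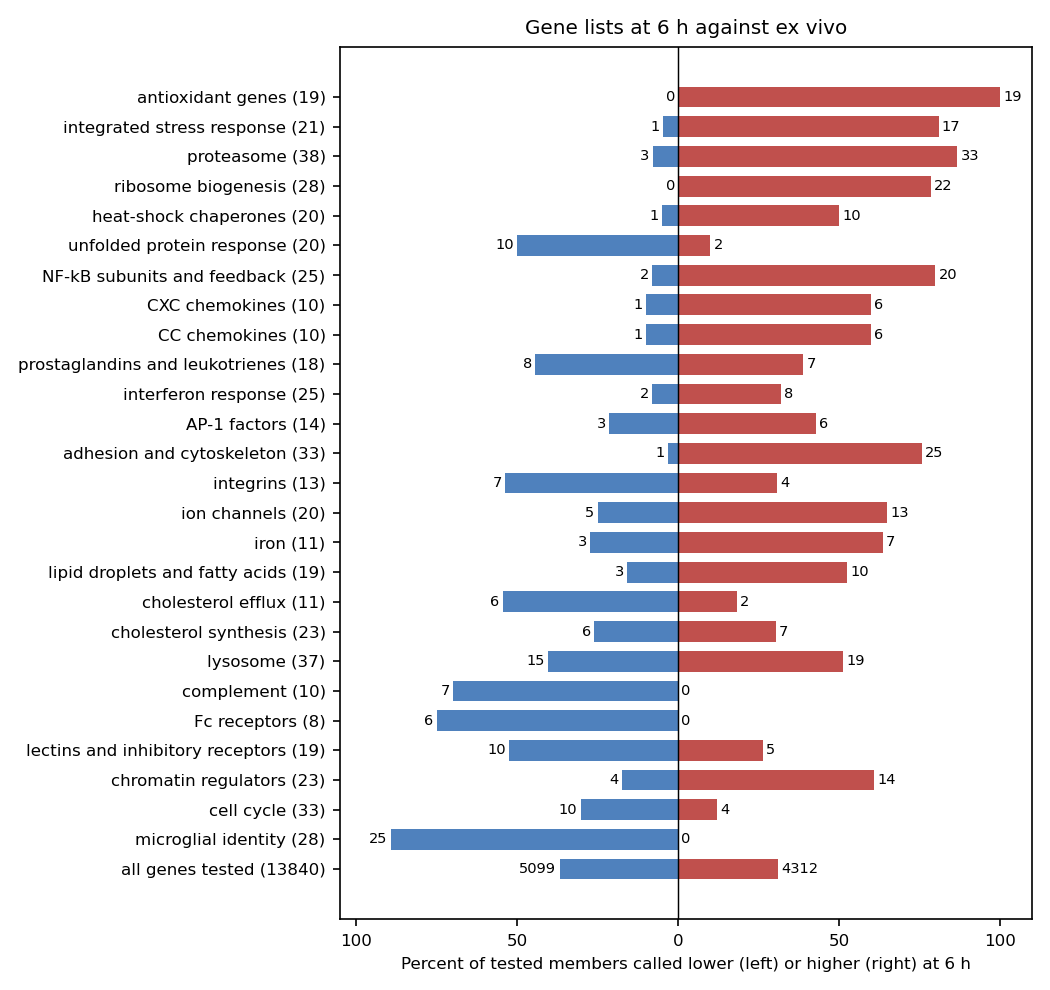
Share of the tested members of 26 gene lists, and of all 13840 genes tested, called higher (red, to the right) or lower (blue, to the left) at 6 h than ex vivo. Numbers at the bars count genes, numbers in brackets the members tested; the antioxidant list was all on the right (19 of 19) and the microglial identity list on the left (25 of 28).

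Inflammatory signalling through NF-κB was marked by rises of its subunits and of its own inhibitors. NF-κB factors are held in the cytoplasm by IκB proteins and, once released, switch on cytokine genes together with the inhibitors that end the response. Of 25 genes of this list 20 were higher at 6 h and 2 lower (median log2 2.12), the same 20 in number with library totals and with the deposited TPM. Nfkb1, the p105 precursor, had 1261 and 986 CPM at 6 h, against 257, 228, 231, 287 and 288 CPM ex vivo (2.12 ± 0.14). Nfkb2 had 666 and 693 CPM at 6 h, against 33.2 to 66.9 CPM ex vivo (3.82 ± 0.24), and its partner Relb had 409 and 404 CPM, against 18.9 to 33.5 CPM (3.93 ± 0.21). The inhibitors Nfkbia (841 and 785 CPM against 80.3 to 243 CPM, 2.31 ± 0.36) and Tnfaip3, the ubiquitin-editing enzyme A20 (1349 and 986 CPM against 88.7 to 260 CPM, 2.93 ± 0.31), rose as well. All of these lay above the ex vivo range in both 6 h libraries. Tnip3, an A20-binding protein, was near absent ex vivo at no more than 0.363 CPM and had 45.2 and 54 CPM at 6 h (8.36 ± 0.80). Nfkbiz, a nuclear IκB protein, had 180 and 153 CPM at 6 h and overlapped uneven ex vivo values of 703, 36.8, 24.9, 455 and 132 CPM (-0.70 ± 0.94, not called).

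Cytokines rose unevenly. Tnf, tumour necrosis factor, had 1126 and 1046 CPM at 6 h, against 40.3, 9.44, 4.11, 130 and 63.9 CPM ex vivo (4.46 ± 0.80). Il1rn, the natural antagonist of the IL-1 receptor, had 95.2 and 76.3 CPM at 6 h, against 0.51, 1.75, 0.686, 0.143 and 0.111 CPM ex vivo (7.06 ± 0.56). Gdf15, a stress-induced cytokine, had 97.6 and 150 CPM at 6 h, against at most 0.743 CPM ex vivo (8.44 ± 0.45). All 3 were higher in each 6 h library than in any ex vivo library. Of the growth factors, Pdgfa, Pdgfb and Vegfa rose: Pdgfa had 179 and 152 CPM against 8.44 to 14.6 CPM (3.87 ± 0.23), Pdgfb 1793 and 1862 CPM against 282 to 502 CPM (2.22 ± 0.22) and Vegfa 27.2 and 36.3 CPM against 1.95 to 4.75 CPM (3.34 ± 0.38). Tgfa, a ligand of the EGF receptor, fell to 82.3 and 78.9 CPM, against 190 to 281 CPM (-1.59 ± 0.29), and Inhba was called lower with no count at 6 h and 0 to 1.50 CPM ex vivo, but not without 6 h replicate 1 (edgeR adjusted p = 0.153) or replicate 2 (edgeR adjusted p = 0.136). Falls also included those of Il16, a T cell attractant, to 3.33 and 2.36 CPM at 6 h, against 182 to 242 CPM ex vivo (-6.18 ± 0.34), and of the inflammasome sensor Nlrp1b, to 2.39 and 1.61 CPM, against 84.7 to 178 CPM (-6.00 ± 0.37). Over the list of other cytokines and growth factors 12 of 21 genes were higher and 5 lower (Ebi3, Il15, Il16, Inhba and Tgfa), and over the IL-1 family and inflammasome list 8 of 16 higher and 5 lower (Aim2, Gsdmd, Il18, Nlrp1b and Pycard).

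Chemokines of the CXC family rose in 6 of 10 members tested. Cxcl12, which fell, had no count at 6 h, against 0.215 to 0.835 CPM ex vivo, and was at least 5.64-fold lower if the 2 cultures together had held 3 counts. Its call was lost without 6 h replicate 1 (edgeR adjusted p = 0.0786) or replicate 2 (edgeR adjusted p = 0.0675). Cxcl2 and Cxcl3, which attract neutrophils, were near absent ex vivo: Cxcl3 had 64.4 and 63.7 CPM at 6 h, against 0.0464, 0.188, 0, 0 and 0 CPM ex vivo (10.37 ± 0.63). Cxcl1, their close relative, reached only 1.54 and 2.36 CPM at 6 h. Cxcl16, a membrane-bound chemokine that also takes up oxidised lipid, had 711 and 635 CPM at 6 h, against 36.1 to 47.6 CPM ex vivo (3.98 ± 0.24). Among CC chemokines 6 of 10 were higher and 1 lower. Ccl9 had 1632 and 1929 CPM at 6 h, against 119, 135, 115, 25.8 and 30.2 CPM ex vivo (4.39 ± 0.49), and Ccl24, an eosinophil attractant, had 49.1 and 46.4 CPM, against 0.931 to 4.16 CPM (4.23 ± 0.51). Ccl12, a monocyte attractant, fell to 2.98 and 0.977 CPM at 6 h, against 147, 20.9, 14.3, 66.2 and 43 CPM ex vivo (-4.86 ± 1.33), and was not called without 6 h replicate 2 (-4.26, edgeR adjusted p = 0.0590). Ccl2, its relative, had 8.51 and 7.99 CPM at 6 h, inside the ex vivo range of 2.74 to 89.3 CPM (-2.62 ± 1.23, not called), and was called lower without ex vivo replicate 3 (-2.92, edgeR adjusted p = 0.0221).

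The Cxcl2 promoter is shown because Cxcl2 had the largest rise among chemokines (log2 10.69). Capitals mark an NF-κB match to GGANNTTCC, which begins 96 bases before the start. The letters, on either strand, occur in 4.26% of the 32851 promoters. The sequence is chr5:90903649-90903898 of mm10 on the + strand, from RefSeq. In the authors' pooled ex vivo peak lists, which hold positions and no signal, accessible chromatin (ATAC), the myeloid factor PU.1 and H3K4me2 each had a peak within 1 kb of the Cxcl2 start, and the active mark H3K27ac had none. The starts of Srxn1, Slc7a11 and P2ry12 each had a peak in all 4 lists.
Cxcl2 promoter: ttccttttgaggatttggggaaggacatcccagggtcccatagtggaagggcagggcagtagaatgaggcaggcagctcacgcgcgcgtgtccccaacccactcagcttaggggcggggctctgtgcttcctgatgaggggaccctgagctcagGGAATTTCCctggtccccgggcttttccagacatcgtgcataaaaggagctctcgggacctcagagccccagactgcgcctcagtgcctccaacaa

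Enzymes of prostaglandin and leukotriene synthesis moved in both directions. Arachidonic acid is turned into prostaglandins by the cyclooxygenases, Ptgs1 being the constitutive and Ptgs2 the inducible form, and into leukotrienes by Alox5. Ptgs1 fell to 37.8 and 17.4 CPM at 6 h, against 945, 1095, 912, 1204 and 1046 CPM ex vivo (-5.24 ± 0.35). Ptgs2 had 2440 and 2717 CPM at 6 h, against no more than 3.99 CPM in any ex vivo library (10.46 ± 0.75). Ptges, the inducible prostaglandin E synthase, had 81.9 and 61.3 CPM at 6 h, against at most 0.0807 CPM ex vivo (10.26 ± 0.66). These 3 genes showed no overlap between groups. Alox5 fell to 0.547 and 0.575 CPM at 6 h, against 59.2, 39.4, 55.2, 65.6 and 67.1 CPM ex vivo (-6.66 ± 0.44). Of the receptors for prostaglandin E2, Ptger4 had 92.4 and 59.1 CPM at 6 h, against 1.05 to 2.04 CPM ex vivo (5.62 ± 0.23), and Ptger3 had 1 count at 6 h, against 3.69 to 10.2 CPM ex vivo, 44.9- to 9890-fold lower by counting error. Tbxas1, thromboxane synthase, had 171 and 188 CPM at 6 h and overlapped the ex vivo range of 153 to 199 CPM (0.00 ± 0.18, not called). Over the list 7 of 18 genes were higher and 8 lower, beside 31.2% and 36.8% over all genes.

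Interferon-response genes were not alike in the 2 cultures. Oasl1, an antiviral protein of the oligoadenylate synthetase family, had 371 CPM in 6 h replicate 1 and 33.3 CPM in replicate 2, against 0.278, 0.313, 0.605, 0.788 and 1.28 CPM ex vivo (8.29 ± 1.27). Ccl5, an interferon-inducible chemokine, had 98.6 and 12.6 CPM at 6 h, against 0.325, 0.875, 1.13, 0.143 and 0.334 CPM ex vivo (6.56 ± 1.25). Rsad2, an antiviral enzyme, had 36.1 and 7.18 CPM at 6 h, against 0.667 to 2.32 CPM ex vivo (3.70 ± 0.87). Replicate 1 stood several-fold above replicate 2 in all 3 genes, and both were above the ex vivo range. Irf7, a factor that amplifies interferon production, had 25.6 and 6.95 CPM at 6 h and overlapped the ex vivo range of 5.3 to 8.44 CPM (1.16 ± 0.87, not called). Over the list 8 of 25 genes were higher, near the 31.2% over all genes, and 2 were lower, beside 36.8%. Without 6 h replicate 1, 3 were called higher and Rsad2 was not (2.14, edgeR adjusted p = 0.107). Without replicate 2, 9 were called higher. Ifnar1, a chain of the type I interferon receptor, was alike in both cultures, at 648 and 565 CPM, against 166 to 200 CPM ex vivo (1.71 ± 0.15). Of 8 interferon regulatory factors 5 were higher and 2 lower, but 1 was called higher with library totals and without 6 h replicate 1. Irf5, which acts below toll-like receptors, had 1284 and 1509 CPM at 6 h, against 376 to 488 CPM ex vivo (1.71 ± 0.13).

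**Figure D3:**
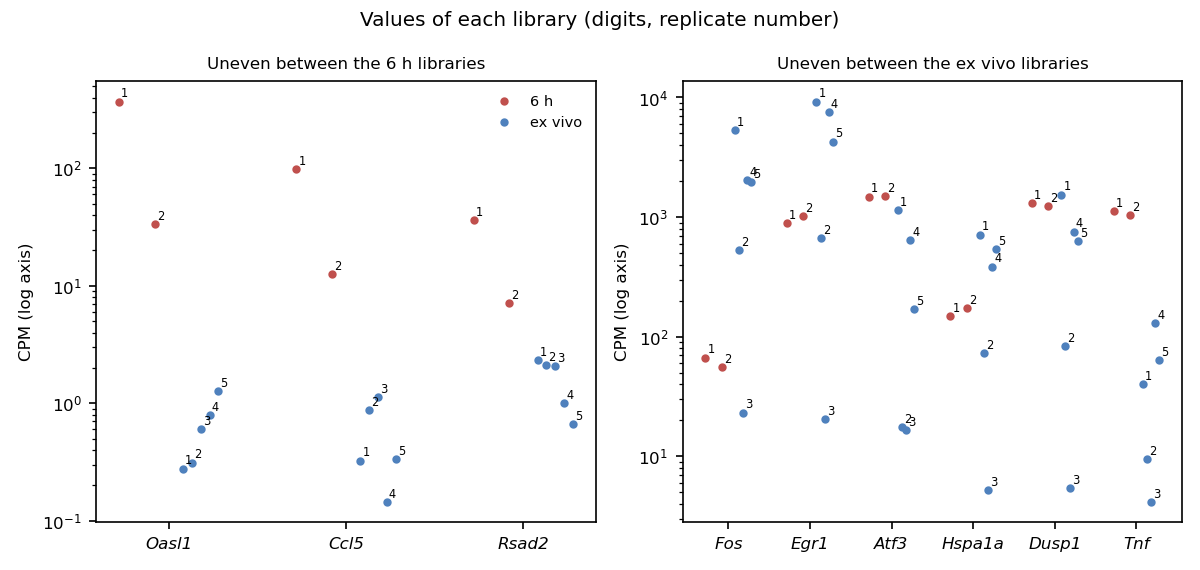
Levels in CPM (log axes) of each library at 6 h (red) and ex vivo (blue), for genes uneven between the 6 h libraries (left) and between the ex vivo libraries (right), with the replicate number beside each point. Oasl1 had 371 and 33.3 CPM in the 6 h libraries, and Atf3 lay between 16.5 and 1149 CPM ex vivo, with replicates 2 and 3 lowest.

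Immediate-early genes, which answer dissociation, stress and mitogens within minutes, could be compared only against uneven ex vivo libraries. Atf3, a stress-induced AP-1 relative, had 1485 and 1491 CPM at 6 h, against 1149, 17.5, 16.5, 640 and 169 CPM ex vivo, and was not called (1.90 ± 0.99). Junb had 1406 and 1693 CPM at 6 h and overlapped ex vivo values of 3926, 451, 196, 1843 and 1546 CPM (-0.04 ± 0.71, not called). Dusp1, a phosphatase that turns off MAP kinases, had 1313 and 1230 CPM at 6 h and overlapped ex vivo values of 1544, 83.7, 5.41, 757 and 631 CPM (1.07 ± 1.08, not called). In each case ex vivo replicates 2 and 3 were lowest, and the 6 h libraries lay close together. For Atf3 both 6 h libraries were above the ex vivo range, while the other two genes overlapped. Calls of these genes turned on single libraries: Egr1 was called lower without ex vivo replicate 3 (-2.51, edgeR adjusted p = 0.00916), and Atf3 higher without ex vivo replicate 1 (2.85, edgeR adjusted p = 0.0153). Without ex vivo replicates 2 and 3 together Egr1 was called lower (-2.88, edgeR adjusted p = 7.84e-05) and Atf3 higher (1.19, edgeR adjusted p = 0.0426). Fosb was called lower with all libraries (-5.18, edgeR adjusted p = 0.0230) but not without 6 h replicate 1 (-5.10, edgeR adjusted p = 0.128) or replicate 2 (-5.22, edgeR adjusted p = 0.122), and it overlapped, with 18.4 and 20 CPM at 6 h, against 0.403 to 2141 CPM ex vivo. The Fosb call was also lost with the replicate block (-4.91, edgeR adjusted p = 0.0872), with only the 7 libraries of both groups, with the deposited TPM and with no filter on low counts. Fos, with 66.8 and 55.6 CPM at 6 h, against 23.2 to 5327 CPM ex vivo, was called lower but not without 6 h replicate 2 (-4.86, edgeR adjusted p = 0.0549) or with only the 7 libraries of both groups (-4.97, edgeR adjusted p = 0.0795).

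Of 14 AP-1 genes 6 were higher and 3 lower (Fos, Fosb and Jun), beside 31.2% and 36.8% over all genes. The lower calls came to 1 without 6 h replicate 1 and with the replicate block, and to 0 without 6 h replicate 2 and with only the 7 libraries of both groups. Of 25 other immediate-early genes 12 were higher and 3 lower, and 6 were lower without ex vivo replicate 3. Other members of the AP-1 family were steady ex vivo and rose. Fosl1, the FOS relative known from growth-stimulated and migrating cells, had 317 and 360 CPM at 6 h, against 0.325, 0.75, 0.484, 0.86 and 0.222 CPM ex vivo (9.37 ± 0.52). Jdp2, a dimer partner of JUN, had 119 and 92.6 CPM at 6 h, against 4.37 to 12.6 CPM ex vivo (3.75 ± 0.34), and Mafg, a small MAF protein that pairs with NRF2, had 298 and 323 CPM, against 76.3 to 90.2 CPM (1.90 ± 0.13). Klf10, a zinc-finger factor, had 423 and 379 CPM at 6 h, against 10.6 to 21.1 CPM ex vivo (4.82 ± 0.22). None of these overlapped. In the list of signalling feedback inhibitors 10 of 22 genes were higher and 5 lower. Dusp5 and Dusp4, phosphatases that turn off ERK, rose while their relatives Dusp6 and Dusp7 fell. Dusp5 had 159 and 163 CPM at 6 h, against 0.202 to 3.15 CPM ex vivo (6.92 ± 0.61), and Dusp4 had 37.5 and 40.5 CPM, against 0.242 to 1.36 CPM (5.56 ± 0.41). Dusp6 had 139 and 78.7 CPM at 6 h, against 539 to 1192 CPM ex vivo (-2.88 ± 0.38). Cish, an inhibitor of STAT5 signalling, had 67.8 and 64.6 CPM at 6 h, against 1 to 1.72 CPM ex vivo (5.63 ± 0.26). Spry1, an inhibitor of growth factor receptors, fell to 3.43 and 3.33 CPM at 6 h, against 18.8 to 44.8 CPM ex vivo (-3.27 ± 0.37), and Zfp36l1, an mRNA decay factor, to 94.2 and 85.5 CPM, against 326 to 1165 CPM (-3.16 ± 0.50).

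Surface receptors and transporters moved both ways within families. Of all genes 31.2% were higher and 36.8% lower, so a split within a family is not by itself particular to it. Of 28 microglial identity genes 25 were lower at 6 h, each of them at least 4-fold, and the median log2 fold change was -5.20. Among purinergic receptors, which sense ATP and its breakdown products, P2ry12 had 11.3 and 3.96 CPM at 6 h, against 4175, 6573, 5235, 2974 and 3106 CPM ex vivo. P2ry2, a receptor for ATP and UTP, had 111 and 108 CPM at 6 h, against 0.882, 0.813, 0.323, 0.717 and 0.445 CPM ex vivo (7.45 ± 0.45). The receptor that was abundant ex vivo was thus low in both 6 h libraries, and the one near absent ex vivo was present in both. Adora3, an adenosine receptor, fell to 19.8 and 23.1 CPM at 6 h, against 140 to 176 CPM ex vivo (-2.88 ± 0.26). Over the list 4 of 12 purinergic genes were higher and 7 lower, beside 31.2% and 36.8% over all genes.

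The P2ry12 promoter is shown as that of the largest fall among the named genes. Capitals mark a match to TCACGTG, the letters that factors of the MiT/TFE family bind, which begins 228 bases before the start, and an NF-κB match to GGANNTTCC 51 bases before it. TCACGTG occurs on either strand in 3.77% of the 32851 promoters. The sequence is chr3:59262986-59263235 of mm10, read on the - strand, from RefSeq.
P2ry12 promoter: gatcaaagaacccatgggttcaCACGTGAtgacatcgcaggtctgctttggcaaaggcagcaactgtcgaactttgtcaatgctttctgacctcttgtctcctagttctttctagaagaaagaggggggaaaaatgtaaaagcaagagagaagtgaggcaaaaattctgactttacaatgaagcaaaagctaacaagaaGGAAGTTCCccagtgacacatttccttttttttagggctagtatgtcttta

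Of 23 receptors for chemoattractants, 8 were higher and 8 lower, near the 31.2% and 36.8% over all genes. C5ar1, the receptor of complement fragment C5a, had 1369 and 1390 CPM at 6 h, against 122, 125, 152, 112 and 142 CPM ex vivo (3.40 ± 0.16). C3ar1, the receptor of C3a, had 2275 and 2018 CPM at 6 h, against 290 to 453 CPM ex vivo (2.64 ± 0.20), and Ptafr, the receptor of platelet-activating factor, had 1796 and 1909 CPM, against 285 to 337 CPM (2.57 ± 0.17). These receptors were high in both cultures with no overlap. Lpar5, a receptor of lysophosphatidic acid, fell to 0.348 and 0.977 CPM at 6 h, against 37.7, 44, 38.4, 65.1 and 66.5 CPM ex vivo (-6.27 ± 0.46). Gpr165, an orphan receptor, fell to 1.59 and 0.517 CPM, against 117 to 293 CPM (-7.66 ± 0.53).

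Transcripts of sugar transporters moved in both directions, and uptake was not measured. Slc2a1, the widely expressed glucose transporter GLUT1, had 468 and 484 CPM at 6 h, against 53, 47, 57, 59.6 and 64.1 CPM ex vivo (3.08 ± 0.15), while the fructose transporter Slc2a5 had 1.69 and 0.46 CPM at 6 h, against 510 to 716 CPM ex vivo. Of 26 glycolysis and hypoxia genes 10 were higher and 7 lower, beside 31.2% and 36.8% over all genes. The lower ones included the glucose transporter Slc2a3. Pkm, pyruvate kinase, had 1302 and 1433 CPM at 6 h, against 76.7 to 141 CPM ex vivo (3.59 ± 0.21), and Aldoa, aldolase, had 1493 and 1780 CPM, against 128 to 191 CPM (3.31 ± 0.16). Pdk1, a kinase that keeps pyruvate out of mitochondrial oxidation, fell to 3.68 and 2.41 CPM at 6 h, against 175, 201, 180, 217 and 167 CPM ex vivo (-5.94 ± 0.26). These 3 genes were clear of overlap, and so moved in opposite directions within one pathway. Of 19 amino acid transporters 9 were higher and 6 lower, and 7 and 8 with library totals. Slc43a2, which carries large neutral amino acids, had 2264 and 1875 CPM at 6 h, against 199 to 363 CPM ex vivo (2.99 ± 0.30). Slc1a3, a glutamate transporter shared with astrocytes, fell to 10.1 and 4.37 CPM, against 142 to 217 CPM (-4.63 ± 0.40).

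Integrins, the receptors that hold cells to matrix, moved both ways. Of 13 tested, 4 were higher and 7 lower, beside 31.2% and 36.8% over all genes. The higher ones were Itga5, Itgav, Itgax and Itgb2. Itga5, which forms the fibronectin receptor with β1 integrin, had 4226 and 3909 CPM at 6 h, against 46.6, 41.8, 43.7, 48.7 and 49.6 CPM ex vivo (6.46 ± 0.22, edgeR adjusted p = 4.29e-13). Itgb5, a partner of αV integrin, fell to 128 and 132 CPM at 6 h, against 1857, 1373, 1814, 1932 and 2049 CPM ex vivo (-3.79 ± 0.24). Itga6, a laminin receptor chain, fell to 150 and 119 CPM, against 592 to 784 CPM (-2.27 ± 0.17). Itgb1 had 405 and 361 CPM at 6 h and overlapped the ex vivo range of 268 to 390 CPM (0.27 ± 0.15, not called). Ion channels rose in 13 of 20 cases and fell in 5. Clic4, an intracellular chloride channel protein, had 1906 and 1496 CPM at 6 h, against 8.5 to 14.3 CPM ex vivo (7.30 ± 0.32), and Kcnj2, the inward rectifier Kir2.1, had 1204 and 1195 CPM, against 68.6 to 192 CPM (3.37 ± 0.28). Kcnk13, the THIK-1 channel that sets the resting potential of surveying microglia, had 283 and 284 CPM at 6 h, against 63 to 79.8 CPM ex vivo (2.01 ± 0.12). Trpm2, a channel opened by oxidative stress, fell to 4.48 and 4.14 CPM at 6 h, against 138 to 288 CPM ex vivo (-5.52 ± 0.41).

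**Figure D4:**
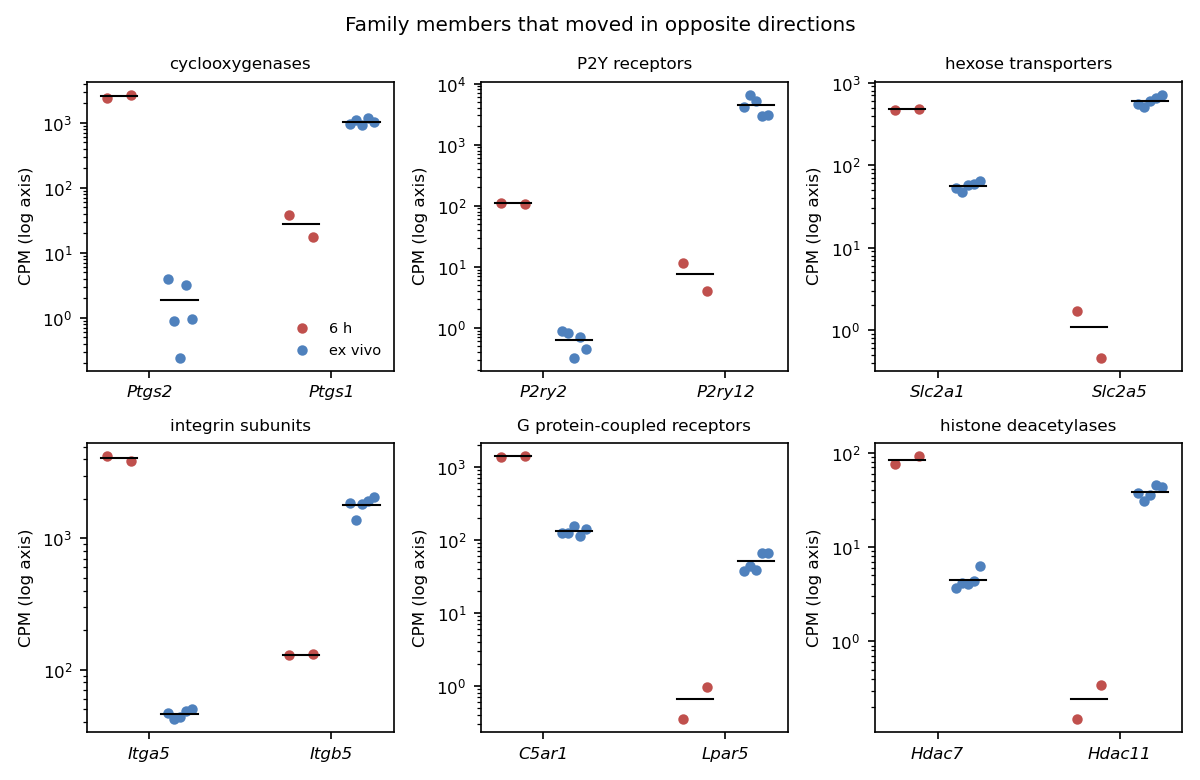
Levels in CPM (log axes) of 6 pairs of related genes in each library at 6 h (red) and ex vivo (blue), with the group mean as a line. The pairs were picked because their members moved in opposite directions. In each pair the first gene was higher and the second lower at 6 h, for example Itga5 at 4226 and 3909 CPM against 41.8 to 49.6 CPM and Itgb5 at 128 and 132 CPM against 1373 to 2049 CPM.

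Genes of adhesion and the actin cytoskeleton rose in 25 of 33 cases, 13 of them at least 4-fold, with 1 lower (median log2 1.54), and 23 and 3 with library totals. Ezr, ezrin, which ties membranes to actin, had 888 and 778 CPM at 6 h, against 2.55, 3.13, 6.7, 3.65 and 1.89 CPM ex vivo (7.84 ± 0.34). Myo1e, a membrane-bound myosin, had 1076 and 993 CPM at 6 h, against 26.9, 26.9, 30.6, 30.7 and 29 CPM ex vivo (5.17 ± 0.17). Tpm4, a tropomyosin, had 506 and 407 CPM, against 20.2 to 27.9 CPM (4.34 ± 0.18). Each lay far above its narrow ex vivo range. Cd44, the hyaluronan receptor, had 820 and 623 CPM at 6 h, against 1.43 to 7.5 CPM ex vivo (7.49 ± 0.45). Fscn1, fascin, an actin-bundling protein of microglial processes, had 638 and 643 CPM at 6 h, against 643 to 1003 CPM ex vivo, and was not called (-0.39 ± 0.30), though it was called lower with library totals (-0.78, edgeR adjusted p = 0.0380). Of the matrix proteases and their inhibitors 8 of 17 were higher and 5 lower. Adam8, a membrane protease, had 2477 and 2626 CPM at 6 h, against 7.05, 4.69, 8.07, 4.16 and 6.23 CPM ex vivo (8.71 ± 0.29), and Plaur, the urokinase receptor, had 352 and 339 CPM, against 7.33 to 9.74 CPM (5.28 ± 0.55). Serpine2, a protease inhibitor, fell to 12.2 and 6.55 CPM at 6 h, against 385 to 494 CPM ex vivo (-5.51 ± 0.42).

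Complement and Fc receptor genes mostly fell, and phagocytosis itself was not measured. Complement C1q, which tags synapses and debris, is made of 3 chains: C1qa had 318 and 294 CPM at 6 h, against 2595, 1939, 3100, 1259 and 2218 CPM ex vivo (-2.86 ± 0.31), and C1qb and C1qc fell by 2.56 ± 0.26 and by 3.34 ± 0.27 on the log2 scale. Over the list 7 of 10 genes were lower. C3, the central component, had 3.13 and 2.93 CPM at 6 h, inside the ex vivo range of 1.53 to 24 CPM (-1.52 ± 0.88, not called). Of 8 Fc receptor genes 6 were lower, all of them at least 4-fold. Fcgr1, the high-affinity receptor for immunoglobulin G, had 24.2 and 22.9 CPM at 6 h, against 412, 302, 416, 340 and 394 CPM ex vivo (-3.98 ± 0.43). The ligand-binding chains thus fell in both cultures without overlap. The signalling parts did not: Fcer1g, the shared γ chain, had 246 and 249 CPM at 6 h, against 195 to 366 CPM ex vivo (-0.25 ± 0.19, not called, but called lower with library totals, -0.66, edgeR adjusted p = 0.0105), and the kinase Syk had 450 and 452 CPM, against 328 to 474 CPM (0.22 ± 0.27, not called).

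Lectins and inhibitory receptors fell in 10 of 19 cases and rose in 5. Siglece, a sialic acid-binding inhibitory receptor, had 2.83 and 1.44 CPM at 6 h, against 121, 109, 125, 111 and 117 CPM ex vivo (-5.76 ± 0.27), Siglech had 61.5 and 30.4 CPM, against 1247 to 1510 CPM (-4.86 ± 0.49), and Sirpa, the receptor of the "do not eat" signal CD47, had 646 and 940 CPM, against 3783 to 4331 CPM (-2.37 ± 0.20). Clec7a, dectin-1, a receptor of fungal glucans, rose to 263 and 265 CPM at 6 h, against 13.2 to 28.2 CPM ex vivo (3.68 ± 0.24). Of the scavenger receptors, Cd36 had 94.8 and 71.5 CPM at 6 h, against 0.835, 2.13, 3.35, 0.0717 and 0.89 CPM ex vivo (5.76 ± 0.55), and Msr1 had 52.4 and 34.9 CPM, against 0.945 to 3.83 CPM (4.22 ± 0.40), while Scarb2, a lysosomal relative of Cd36, fell to 87.9 and 83.2 CPM, against 521 to 659 CPM (-2.76 ± 0.21). Of the peptide-loading machinery of MHC class II, H2-DMa fell to 3.78 and 3.56 CPM at 6 h, against 67.6 to 94.1 CPM ex vivo (-4.45 ± 0.25). Cd274, the checkpoint ligand PD-L1, rose to 231 and 184 CPM, against 12.8 to 21.2 CPM (3.61 ± 0.24). None of these genes overlapped between groups. Over their lists 6 of 17 scavenger genes were higher and 6 lower, 4 of 13 MHC class II and costimulation genes were higher and 4 lower, both near the 31.2% and 36.8% over all genes, and 1 of 11 MHC class I genes was higher and 4 lower. In the toll-like receptor list 7 of 20 genes were higher and 7 lower, also near those shares, and 5 and 11 with library totals. Ticam1, the adaptor TRIF, had 176 and 206 CPM at 6 h, against 41 to 62.6 CPM ex vivo (1.92 ± 0.15), and Unc93b1, which carries nucleic acid-sensing receptors to endosomes, had 382 and 435 CPM, against 1369 to 1953 CPM (-2.09 ± 0.18).

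Several transcripts of lipid uptake and storage rose and those of cholesterol exporters fell, and the processes themselves were not measured. Lpl, lipoprotein lipase, had 9142 and 9447 CPM at 6 h, against 38, 40.1, 46.5, 18.5 and 12.6 CPM ex vivo (8.22 ± 0.38, edgeR adjusted p = 1.36e-11). Plin2, the coat protein of lipid droplets, had 809 and 632 CPM at 6 h, against 22.9, 14.4, 21.6, 15.3 and 20.9 CPM ex vivo (5.24 ± 0.18), and Hilpda, an inhibitor of lipid droplet breakdown, had 32.8 and 29.4 CPM, against 1.58 to 3.71 CPM (3.77 ± 0.25). Mgll, which splits monoglycerides and an endocannabinoid, fell to 4.53 and 3.27 CPM at 6 h, against 107 to 126 CPM ex vivo (-4.90 ± 0.52). Of 19 genes of lipid droplets and fatty acids 10 were higher and 3 lower (Acsl1, Dgat1 and Mgll). The exporters moved together: Abca1 fell to 27.9 and 17 CPM at 6 h, against 977, 1052, 888, 925 and 1122 CPM ex vivo (-5.46 ± 0.69), and Abcg1 to 7.16 and 11.7 CPM, against 258 to 350 CPM (-5.01 ± 0.29). Scd2, a desaturase driven by the same liver X receptors as the exporters, fell to 3.58 and 4.37 CPM, against 149 to 216 CPM (-5.42 ± 0.78). All 3 were low in both cultures with no overlap. Over the efflux list 6 of 11 genes were lower and 2 higher, and with library totals 7 were lower and those 2 were no longer called.

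Of 23 cholesterol synthesis genes, 22 were lower at 6 h than at 24 h, against 22% of all genes. Against ex vivo 7 were higher and 6 lower, where all genes gave 31.2% and 36.8%. The regulator Srebf2 had 185 and 188 CPM at 6 h, against 54.6, 49.3, 45.5, 67.5 and 68.5 CPM ex vivo (1.71 ± 0.19). The 6 that fell were the enzymes Dhcr7, Tm7sf2, Ebp, Lss, Mvk and Nsdhl. Dhcr7, which makes cholesterol from its last precursor, had 1.19 and 0.804 CPM at 6 h, against 26.6, 27.1, 28.4, 27.8 and 26.4 CPM ex vivo (-4.75 ± 0.31). Tm7sf2 fell to 0.398 and 0.747 CPM, against 8.57 to 12.9 CPM (-4.25 ± 0.41), and Ebp to 8.85 and 10 CPM, against 27.2 to 45 CPM (-1.92 ± 0.23). Srebf2 was above, and Dhcr7, Tm7sf2 and Ebp below, the ex vivo range in both cultures. Lysosomal genes parted as well, with 19 of 37 higher and 15 lower, and 16 and 17 with library totals. Pump subunits and lipid hydrolases rose: Atp6v1a had 520 and 599 CPM at 6 h, against 52.2 to 82.2 CPM ex vivo (3.14 ± 0.20), and Lipa, acid lipase, had 1619 and 1529 CPM, against 121 to 167 CPM (3.47 ± 0.17). Grn, progranulin, a lysosomal glycoprotein, fell to 213 and 186 CPM, against 1572 to 1970 CPM (-3.13 ± 0.19).

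Genes that mark microglia around amyloid plaques in mouse models rose in 12 of 18 cases and fell in 2, Trem2 and Apoe. Apoe, which carries lipids, had 30.8 and 19.5 CPM at 6 h, against 198, 113, 420, 64.8 and 107 CPM ex vivo (-2.84 ± 0.78), and was not called without 6 h replicate 2 (-2.53, edgeR adjusted p = 0.0605). Besides Lpl, Lgals3, galectin-3, had 1271 and 1898 CPM at 6 h, against 2.78, 4.5, 5.53, 1.36 and 1.83 CPM ex vivo (8.93 ± 0.38), Cd63, a tetraspanin of late endosomes, had 235 and 229 CPM, against 18.3 to 38.1 CPM (3.15 ± 0.20), and Cd9, another tetraspanin, had 1449 and 1423 CPM, against 242 to 420 CPM (2.12 ± 0.22). These genes lay above the ex vivo range in both cultures. Genes of the osteoclast programme were higher in 7 of 12 cases and lower in 4, of which 1 was called lower without 6 h replicate 1. Tnfrsf11a, the receptor RANK, had 1004 and 958 CPM at 6 h, against 180 to 214 CPM ex vivo (2.35 ± 0.16).

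Among transcription factors of the macrophage lineage 9 of 32 were higher and 15 lower, beside 31.2% and 36.8% over all genes. Zeb2, a repressor that keeps macrophage identity, had 2248 and 1849 CPM at 6 h, against 392, 532, 350, 351 and 392 CPM ex vivo (2.34 ± 0.17), and Pparg, a lipid-sensing nuclear receptor, had 1.79 and 3.04 CPM, against at most 0.282 CPM (4.79 ± 0.67). Hhex, a homeobox factor, fell to 13.6 and 14 CPM, against 90.1 to 120 CPM (-2.93 ± 0.20). Mef2c, a factor of mature microglia, had 515 and 355 CPM at 6 h, against 474 to 766 CPM ex vivo (-0.39 ± 0.21). The groups overlapped and it was not called, though it was called lower with library totals (-0.79, edgeR adjusted p = 0.00441). Chromatin regulators rose in 14 of 23 cases and fell in 4, or 10 and 7 with library totals. The histone deacetylases parted: Hdac7 had 76.2 and 91.7 CPM at 6 h, against 3.71, 4.19, 4.03, 4.37 and 6.23 CPM ex vivo (4.22 ± 0.20), and Hdac11 fell to 0.149 and 0.345 CPM, against 37.4, 30.6, 35.1, 45.7 and 43 CPM (-7.28 ± 0.82). In the TGFβ pathway 8 of 25 genes were higher and 8 lower, near the 31.2% and 36.8% over all genes. The type II receptor Tgfbr2 fell to 166 and 144 CPM at 6 h, against 881, 1008, 962, 1081 and 1026 CPM ex vivo (-2.68 ± 0.18), the coreceptor Eng to 59.4 and 58.1 CPM, against 261 to 405 CPM (-2.39 ± 0.19), and Tgif1, a repressor of SMAD targets, rose to 330 and 368 CPM, against 49.7 to 62.8 CPM (2.60 ± 0.12).

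Growth, survival and clock genes were examined next. Cdk6, which starts the cell cycle, had 4382 and 3719 CPM at 6 h, against 169, 300, 139, 224 and 143 CPM ex vivo (4.38 ± 0.28), and its inhibitor Cdkn1a, p21, had 1287 and 1382 CPM, against 42.7, 11.2, 12.9, 22.1 and 21.7 CPM (5.91 ± 0.39). Mcm3, a subunit of the replication helicase, had 6.17 and 9.25 CPM at 6 h, against 35.9 to 47.9 CPM ex vivo (-2.50 ± 0.37). Of 33 cell cycle genes 4 were higher and 10 lower, but 3 were lower without 6 h replicate 1, 6 without replicate 2 and 17 when the fit held only these 7 libraries. Of 15 p53 target genes 9 were higher and 2 lower, with the death receptor Fas at 33 and 24.4 CPM at 6 h, against 0.717 to 1.17 CPM ex vivo (4.82 ± 0.23). Of 20 survival and cell death genes 13 were higher and 5 lower, and 11 and 7 with library totals. Bcl2l1 (BCL-XL), which protects mitochondria, had 471 and 468 CPM, against 88.6 to 104 CPM (2.28 ± 0.13), and Bcl2l11 (BIM), which opens them, had 846 and 728 CPM, against 82.4 to 105 CPM (3.15 ± 0.23), while Bmf, another activator of death, fell to 21.5 and 21.3 CPM, against 186 to 248 CPM (-3.31 ± 0.35). In the IL-34 and CSF1 signalling list 9 of 19 genes were higher and 5 lower. Csf1, the second ligand of the receptor that IL-34 binds, had 569 and 518 CPM at 6 h, against 46.1, 29.3, 37.6, 39.7 and 23 CPM ex vivo (3.95 ± 0.59). Of 17 clock genes 7 were higher and 6 lower, beside 31.2% and 36.8% over all genes. Nfil3 had 79.4 and 65.7 CPM at 6 h, against 3.5 to 10.1 CPM ex vivo (3.53 ± 0.28), and its counterpart Hlf 0.448 and 0.46 CPM, against 17.5, 50.5, 20.5, 19.6 and 39.9 CPM (-6.01 ± 0.65). The labels do not state the time of day at which cells were taken.

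The 6 h state was also set against 24 h of culture the next time sampled. At 6 h 2734 genes were higher than at 24 h (19.8%) and 3045 lower (22%). These counts were 1767 and 1848 without 6 h replicate 1, and 1332 and 5043 with library totals. Both this and the previous comparison use the same 6 h libraries. The largest excess over 24 h by the rule used was that of Npnt, nephronectin, an integrin-binding matrix protein. It averaged 91.9 ± 19.3 CPM ex vivo, 360 ± 137 CPM at 6 h, 4.42 ± 1.02 CPM at 24 h and 11.9 ± 10.0 CPM at 7 d (SD, log2 of 6 h over 24 h 6.35 ± 0.73). Its rise over ex vivo was not called without 6 h replicate 1 (1.55, edgeR adjusted p = 0.0704). Fam83g averaged 5.93 ± 1.43 CPM ex vivo, 364 ± 12.6 CPM at 6 h, 10.4 ± 1.85 CPM at 24 h and 1.76 ± 0.80 CPM at 7 d (5.13 ± 0.49). Ocstamp, which osteoclast precursors need to fuse, averaged 0.162 ± 0.111 CPM ex vivo, 171 ± 20.5 CPM at 6 h, 5.37 ± 0.97 CPM at 24 h and 0.113 ± 0.150 CPM at 7 d (4.99 ± 0.46). The rule took only genes called higher at 6 h than ex vivo and than at 24 h. Npnt, Fam83g and Ocstamp peaked at 6 h among the times sampled, in both cultures. Ednrb, an endothelin receptor, likewise averaged 2.88 ± 1.61 CPM ex vivo, 302 ± 40.8 CPM at 6 h and 15.4 ± 3.74 CPM at 24 h (4.29 ± 0.49).

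Other genes were still on the way up at 6 h. Mmp12, macrophage elastase, averaged 1.47 ± 1.12 CPM ex vivo, 1365 ± 105 CPM at 6 h, 7012 ± 876 CPM at 24 h and 2074 ± 569 CPM at 7 d (log2 of 6 h over 24 h -2.36 ± 0.58). Clec4d, a C-type lectin, averaged 0.310 ± 0.389 CPM ex vivo, 8.35 ± 1.41 CPM at 6 h, 99.9 ± 10.5 CPM at 24 h and 425 ± 205 CPM at 7 d (-3.58 ± 0.66). Some identity genes were still on the way down: Siglech averaged 1332 ± 112 CPM ex vivo, 46.0 ± 22.0 CPM at 6 h and 1.34 ± 0.555 CPM at 24 h (5.10 ± 0.47). Of the 28 identity genes 16 were higher at 6 h than at 24 h and 1 lower. Dhcr7 showed a dip, with 27.3 ± 0.86 CPM ex vivo, 1.00 ± 0.28 CPM at 6 h, 14.9 ± 1.53 CPM at 24 h and 64.1 ± 14.3 CPM at 7 d (-3.88 ± 0.32).

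**Figure D5:**
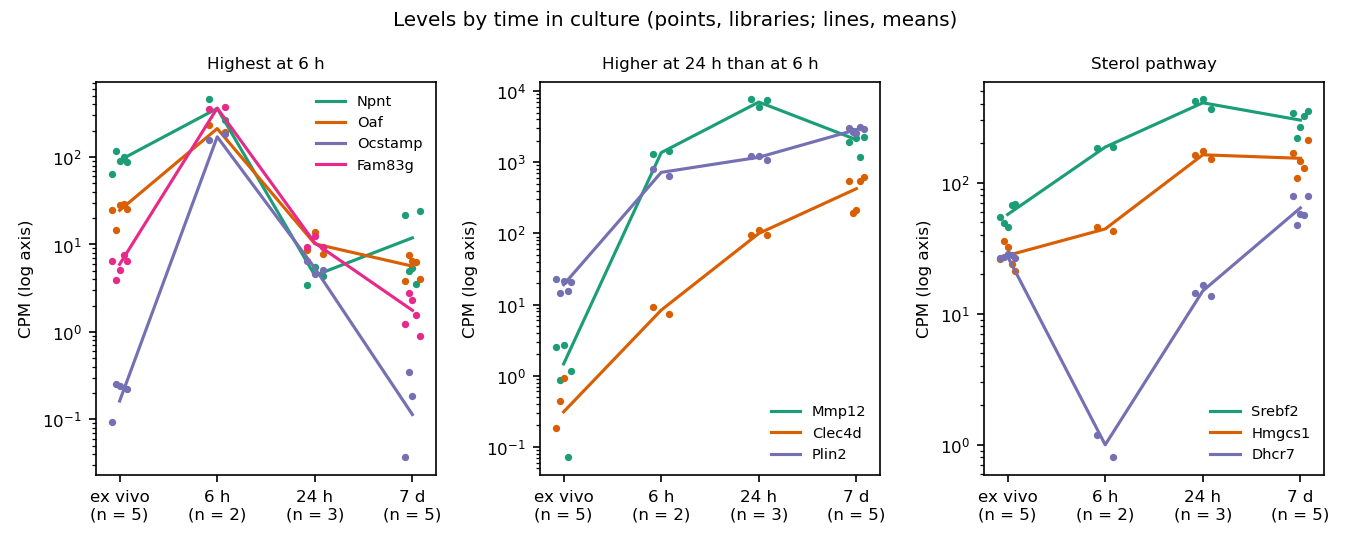
Levels in CPM (log axes) ex vivo and after 6 h, 24 h and 7 d of culture, with a point for each library above 0 and a line through the group means. Npnt, Oaf, Ocstamp and Fam83g were highest at 6 h, Mmp12, Clec4d and Plin2 were higher at 24 h than at 6 h, and of the sterol genes Dhcr7 was lowest at 6 h (1.00 CPM on average) while Srebf2 and Hmgcs1 reached their highest mean at 24 h.

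Of the markers of other cell types that could be tested, all 7 of astrocytes, 6 of 7 of monocytes, 5 of 8 of neutrophils, 4 of 6 of oligodendrocytes, 3 of 6 of border macrophages, 3 of 5 of choroid and ependyma, 2 of 5 of neurons and 2 of 4 of endothelium were called lower at 6 h. Among the lists with fewer markers tested, 1 of 2 of mural cells and the 1 of B cells were called lower. None were called lower of the 2 of erythroid cells or the 1 of oligodendrocyte precursors. Over all genes 36.8% were called lower. The counts of neurons, endothelium and border macrophages lie near that share, and that of choroid and ependyma rests on 5 genes. Cspg4, Flt1, an endothelial marker, and Tubb3, a neuronal one, were called higher, Tubb3 not without 6 h replicate 1 (edgeR adjusted p = 0.206). Summed over its list, neutrophil markers reached 1.26 to 1.84 CPM at 6 h and 3.22 to 183 CPM ex vivo, border macrophage markers 2.64 to 5.92 CPM at 6 h and 7.31 to 102 CPM ex vivo, monocyte markers 3.79 to 4.08 CPM and 6.66 to 66.1 CPM, and choroid and ependymal markers 0.862 to 1.09 CPM and 2.19 to 181 CPM. Neuron markers summed to 0.69 to 1.44 CPM at 6 h and 2.6 to 16 CPM ex vivo, and 7 of the 10, with Snap25 and Syt1 among them, were at 0 in both cultures. Astrocyte markers summed to 4.77 to 11 CPM at 6 h and 166 to 366 CPM ex vivo, 80.2% of the ex vivo sum from Slc1a3, and Gfap and Gja1 were at 0 in both cultures. The oligodendrocyte precursor list was higher, to 92.3 to 98.7 CPM at 6 h, against 0.603 to 3.75 CPM ex vivo. Practically all of it was Cspg4, the proteoglycan NG2 (92.3 and 98.5 CPM at 6 h, against 0.325, 0.375, 0.444, 0.215 and 0.723 CPM ex vivo), while Pdgfra, Cacng4 and Olig1, which define those precursors, were at 0 in both cultures. Cspg4 was singled out after its values were seen. Endothelial markers stood at 55.6 to 59.4 CPM at 6 h and 45.3 to 58.9 CPM ex vivo, mostly Pecam1, which macrophages also express. The part of other cells in the falls of genes they share with microglia was not tested.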

How the data were processed

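Poly(A) RNA was sequenced from sorted C57Bl6 microglia. The authors deposited raw read counts per gene and TPM per gene for the same libraries, and ex vivo peak lists from pooled libraries, called with HOMER per the file headers. The peak lists hold a constant in place of a score, and only their positions were used. The submitters' processing notes name STAR, Bowtie2, HOMER, R 3.3.1 and the builds mm10 and hg38, and the role of each tool is not given in those sources.

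The 17 microglial RNA libraries (6 h, 24 h, 7 d, 7 d with TGFβ, ex vivo) were fitted together with edgeR 4.0.16 in R 4.3.3 (TMM, filterByExpr, robust quasi-likelihood F test, Benjamini-Hochberg over 13840 of 24537 genes), so that the 2 libraries at 6 h borrowed the spread of the other groups. The fit was tested on simulated data. Each standard error was taken as |log2 fold change| over √F. Alternatives used DESeq2 1.42.0, limma 3.58.1 on log2(deposited TPM + 1), other scalings, no filter, a replicate block, fewer libraries and each replicate left out.

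Members and lists were chosen with earlier results of these data known. Named genes were the largest changes with a mean of at least 20 CPM and no overlap, the 4 smallest adjusted p-values and the extremes of each list, up to 2 uncalled members per list, the largest excesses over 24 h, and a short list of known genes. Not every such gene is printed, and some are not reported here. The promoters of Srxn1 and Slc7a11 were chosen for printing after their values were seen. RefSeq promoters covered 75.8% of the genes at least 4-fold higher and 78.3% of those at least 4-fold lower, under the 80% required, so the comparison of motif and peak shares between these groups is void and is not given.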

Additional observations from a re-analysis of the deposited data

Results flagged for a closer look

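Of 268 named genes, 19 had 1 ex vivo library far from the other 4, where chance gives about 1 in 20. Replicate 1 was high for Hspa5 (3300 CPM). Replicate 2 was high for Cxcl3 (0.188 CPM), Zeb2 (532 CPM), Hdac9 (44.5 CPM) and Sesn1 (197 CPM) and low for Aars (82.6 CPM) and Oaf (14.7 CPM). Replicate 3 was high for Hspb7 (0.0403 CPM), Spic (0.0807 CPM), Hilpda (3.71 CPM), Pparg (0.282 CPM), Tubb3 (0.484 CPM) and Map1a (7.62 CPM). Replicate 4 was high for Csf2rb2 (173 CPM) and Slc7a1 (48.8 CPM) and low for Fyn (17.7 CPM). Replicate 5 was high for Cxcl1 (0.0556 CPM), Ddit4 (174 CPM) and Hdac7 (6.23 CPM). The levels of Hspb7 and Spic are 1 and 2 counts against none in the other 4 libraries, and that of Cxcl1 is as low, too few counts to set a library apart. For Hspa5 the 6 h libraries lay within the ex vivo range, and for the others they lay outside it.

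Of the 268 named genes, 5 were called in opposite directions at 6 h and at 24 h against the same ex vivo libraries, and edgeR called the difference between the times. Of all 13840 genes tested, 133 were likewise higher at 6 h and lower at 24 h, and 159 lower at 6 h and higher at 24 h. The named genes are thus not set apart by such reversals. Npnt, Slc5a10 and Oaf were named for their excess over 24 h, so their adjusted p-values for that difference are not separate support. Npnt was higher at 6 h than ex vivo by 1.97 and lower at 24 h (-4.38), a difference of 6.35 on the log2 scale (edgeR adjusted p = 9.63e-06). Slc5a10 changed by 2.42 at 6 h and -2.52 at 24 h, a difference of 4.94 (edgeR adjusted p = 1.24e-06). Oaf, a secreted protein, changed by 3.11 at 6 h and -1.27 at 24 h, a difference of 4.38 (edgeR adjusted p = 1.79e-07). Edem1 changed by 1.51 at 6 h and -0.39 at 24 h, a difference of 1.90 (edgeR adjusted p = 5.53e-07). Lss, an enzyme of cholesterol synthesis, changed by -1.52 at 6 h and 1.39 at 24 h, a difference of -2.91 (edgeR adjusted p = 4.91e-05).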

How the results depend on the processing

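The counts of genes called were stable to the choice of size factors, filter and test, and moved with scaling and with the size of change tested. The counts against 24 h also moved with the libraries in the fit. With only the 6 h and 24 h libraries, 3733 genes were higher and 4221 lower, beside 2734 and 3045 in the main fit. Against a 2-fold change (glmTreat), 2037 genes were higher and 3171 lower at 6 h than ex vivo, and 538 higher and 785 lower than at 24 h. The calls of named genes were not examined against a 2-fold change, which is not among the 15 settings counted below. With the deposited TPM, 644 genes were at least 4-fold higher and 1629 at least 4-fold lower, and 1550 were higher than at 24 h. With library totals 1332 genes were higher and 5043 lower than at 24 h. The median log2 fold change was -0.57 with library totals and -0.31 with TPM. Leaving out each replicate gave 3723 to 4349 higher, 4020 to 5059 lower, 1264 to 1312 at least 4-fold higher and 2190 to 2625 at least 4-fold lower, with 1767 to 2288 higher and 1848 to 2806 lower than at 24 h. The lowest counts against 24 h came without 6 h replicate 1. Of the 268 named genes, 241 were called, 16 of these lost their call in at least 1 of 15 settings and none changed sign while called. Those not already described were Cyld, Irf1 and Aim2 (without 6 h replicate 2, edgeR adjusted p = 0.0771, 0.0630 and 0.0614), Steap3 (without 6 h replicate 1, 0.0779), Jun (without either 6 h replicate, 0.0874 and 0.0958, and with the replicate block, 0.0537) and Ccnd1 (without either 6 h replicate, 0.0664 and 0.129). The cause was not tested.

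Whether shared replicate numbers pair the libraries could not be settled. The deviations of same-numbered 6 h and ex vivo libraries correlated at -0.02 and -0.22. With 2 libraries at 6 h these deviations mirror each other, so the correlations cannot exclude a pairing. With the replicate block, 4133 genes were higher and 4927 lower than ex vivo, 1279 and 2545 at least 4-fold, and 2554 higher and 2897 lower than at 24 h. The comparison of promoter peaks at 10 kb was not run. With 2 libraries at 6 h, the spread of that group is poorly known.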
